A study of Homo sapiens with 4 samples.

Results

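AP-1 is a dimer of basic leucine zipper proteins in which a JUN protein pairs with a FOS protein or with another JUN protein. Its genes, together with EGR1, IER2 and IER3, include classical immediate early genes, whose RNA can be induced within minutes of a growth factor, serum or stress signal without new protein synthesis. FOSL1, FOSL2 and JUND are usually more steadily expressed than FOS and FOSB. The genes described here were chosen by name: the FOS family (FOS, FOSB, FOSL1 and FOSL2), the JUN family (JUN, JUNB and JUND), the zinc finger factor EGR1 and the early response genes IER2 and IER3. All 10 were found among the 16504 gene symbols of the expression table, and each was read as the sum of its RefSeq transcripts.

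RNA-seq was performed to learn which genes depend on CEBPG, a basic leucine zipper factor and relative of CEBPA, and comprised 2 control libraries and 2 libraries with CEBPG knockdown. All 4 were labelled NB4, a human line derived from acute promyelocytic leukemia. In the study, cells carried a lentiviral short hairpin RNA (shRNA) vector and were kept under puromycin selection, in both the control and the knockdown group. The titles of both knockdown libraries carry the same tag, CEBPG3, so that loss of CEBPG and any other effect of that construct cannot be told apart. The labels do not say whether replicates were separate cultures, so p-values measure only the spread between these libraries.

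Expression is given in FPKM, fragments scaled to exon length and to mapped reads, a unit that allows levels of different genes to be set side by side. FPKM values summed to between 346170 and 367105 per library, and read depth was unknown. CEBPG itself was at 17.1 and 18.1 FPKM with control shRNA and at 6.91 and 7.96 FPKM with CEBPG knockdown. Markers went largely against the NB4 label, and the identity of the cells was not tested. Of 8 promyelocyte granule genes, 5 were under 1 FPKM in every library, among them AZU1 and PRTN3. By contrast, 13 of 14 erythroid genes exceeded 10 FPKM throughout. The globin gene HBG2 was at 3095 and 2890 FPKM with control shRNA and 3766 and 3479 FPKM with CEBPG knockdown. GATA1, an erythroid factor, was at 128 and 112 FPKM with control shRNA and 114 and 110 FPKM with CEBPG knockdown. Summed over its list, the erythroid level was 8539 and 8059 FPKM with control shRNA and 9542 and 8971 FPKM with CEBPG knockdown, and the granule level was 31.3 to 35.0 FPKM in all. Within the granule list LYZ, or lysozyme, fell from 20.1 and 18.1 to 15.0 and 15.5 FPKM (limma, adjusted p = 0.0289) and CFD, or complement factor D, rose from 8.59 and 7.63 to 10.9 and 11.0 FPKM (limma, adjusted p = 0.0158). Of 10 myeloid surface and regulator genes, 4 were under 1 FPKM in every library (ANPEP, ITGAM, CSF3R and CEBPA) and 3 were over 10 FPKM in every library (SPI1, CD68 and LGALS1), with a summed level of 400.4 and 369 FPKM with control shRNA and 373 and 352 FPKM with CEBPG knockdown. Most of that sum was LGALS1, at 350.2 and 319 FPKM with control shRNA and 289 and 271 FPKM with CEBPG knockdown, whereas CD68, a lysosomal protein of macrophages, rose from 20.6 and 18.5 to 47.3 and 43.9 FPKM (limma, adjusted p = 0.000638). The part of these markers in the results below was not tested.

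The start regions of the AP-1 and immediate early genes can carry sites for signal-responsive factors, and those of the 3 called genes for which a sequence was at hand are shown for that reason. Each sequence is the 250 bases before the RefSeq start on GRCh38.p14, read 5′ to 3′ on the strand of the gene, and lies just upstream of the transcribed part. JUND is at chr19:18281623-18281872 on the minus strand, EGR1 at chr5:138465229-138465478 on the plus strand and JUNB at chr19:12791236-12791485 on the plus strand. Capitals mark matches to the motifs searched on both strands.
JUND: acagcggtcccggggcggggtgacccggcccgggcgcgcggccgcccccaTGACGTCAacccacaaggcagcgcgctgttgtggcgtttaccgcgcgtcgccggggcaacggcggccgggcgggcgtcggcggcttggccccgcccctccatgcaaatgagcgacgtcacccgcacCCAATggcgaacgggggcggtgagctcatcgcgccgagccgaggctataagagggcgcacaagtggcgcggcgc
EGR1: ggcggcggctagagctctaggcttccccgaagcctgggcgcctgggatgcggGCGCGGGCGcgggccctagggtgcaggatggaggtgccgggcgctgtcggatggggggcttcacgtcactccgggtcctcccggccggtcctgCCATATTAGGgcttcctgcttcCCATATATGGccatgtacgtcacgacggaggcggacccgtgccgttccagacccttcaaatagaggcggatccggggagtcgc
JUNB: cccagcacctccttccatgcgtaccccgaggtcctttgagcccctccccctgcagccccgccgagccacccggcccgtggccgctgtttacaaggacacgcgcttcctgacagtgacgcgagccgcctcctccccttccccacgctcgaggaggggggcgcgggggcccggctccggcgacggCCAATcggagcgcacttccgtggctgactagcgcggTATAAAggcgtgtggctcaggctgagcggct

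The JUND sequence held a full cAMP response element, TGACGTCA, from base -200 to -193, and a CCAAT box from base -74 to -70. EGR1 held 2 CArG boxes, the motif of serum response factor, from base -105 to -96 and from -83 to -74, and 1 match to GCGNGGGCG, the motif of EGR proteins, from base -198 to -190. JUNB held a CCAAT box and a TATAAA element. A sequence was at hand for 8 of the 10 genes, FOSL1 and IER3 being the other two. Among those 8, the CArG box was matched in 1, TGACGTCA in 1, GCGNGGGCG in 1, CCAAT in 3 and TATAAA in 3. Across all 35116 such sequences these motifs were matched in 1.16%, 1.65%, 8.41%, 32.0% and 10.7%. The AP-1 motif TGANTCA, matched in 6.57% of all sequences, and TGATGNAAN, the composite motif of ATF4 and CEBP proteins, matched in 3.13%, were not among these letters for any of the 8. No 2 of the matches in the 8 sequences overlapped.

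Comparison of CEBPG knockdown with control libraries showed higher levels of FOSL1, IER3, JUND, EGR1 and JUNB, and no gene of the 10 was called lower. Of the 10 genes, 8 had a mean of at least 1 FPKM and were tested together with all other such genes in limma on log2(FPKM + 1), with Benjamini-Hochberg adjustment over 10968 genes. An adjusted p under 0.05 was reached by 5 of the 8, all higher, where 20.9% of all tested genes were called, 10.9% higher and 9.99% lower. In all 8, both knockdown libraries lay above both control libraries, as they did in 34.3% of tested genes. The median log2 fold change of the 8 was 0.50, beside 0.015 over all tested genes. Without control 2, where FOS was tested as well, the median was 0.29 over 9 genes, and with no filter it was 0.35 over all 10. None of the 8 passed the threshold of the study, read as an unadjusted p under 0.05 with more than a 2-fold change, which 0.602% of tested genes passed. At an unadjusted p under 0.05 alone (limma), 7 of the 8 were found, beside 4057 of all 10968 tested genes. The 5 calls remained 5 without either control library and were 4 without either knockdown library, where JUNB was not called.

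**Figure D1:**
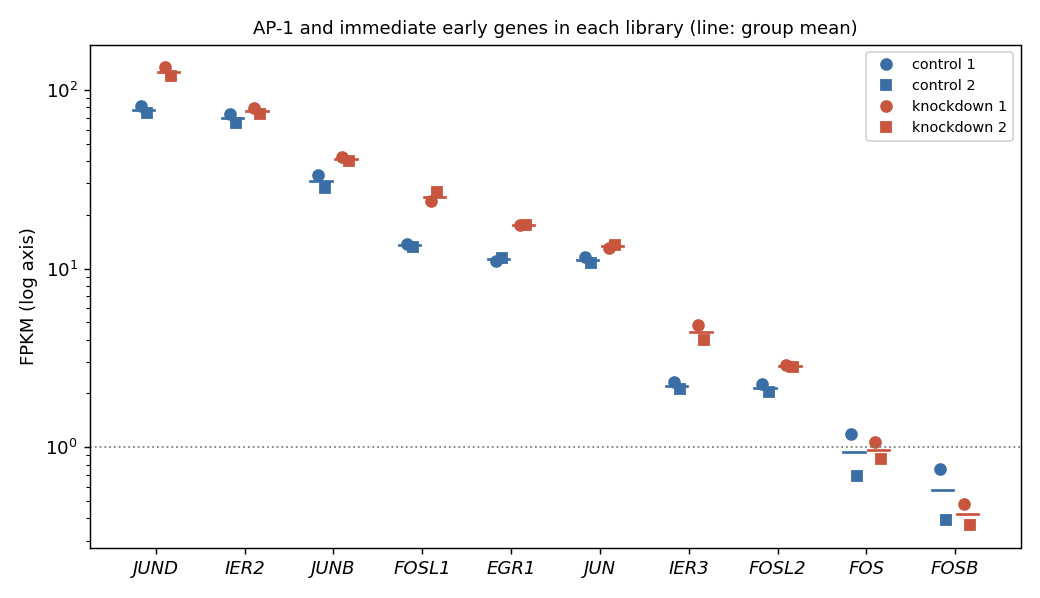
FPKM of each of the 10 genes on a log axis, ordered by the control mean, with a point per library (circle for replicate 1, square for replicate 2), a short line at each group mean and a dotted line at 1 FPKM. The red knockdown points lie above the blue control points for the 8 genes from JUND to FOSL2, and the groups overlap for FOS and FOSB.

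JUND, a JUN protein found in most resting and dividing cells, was the most abundant of the 10 genes in both groups. It lies at chr19:18279694-18281622 on the minus strand (hg38, GENCODE 44, as for all gene positions here). Its values were 81.1 and 74.0 FPKM with control shRNA and 134 and 120.3 FPKM with CEBPG knockdown. Both knockdown libraries were high, and the groups were separated by more than the distance between replicates of either. The mean rose from 77.6 ± 5.04 FPKM to 127 ± 9.57 FPKM (SD, n = 2 each), which is 1.64-fold. On the log2 scale JUND rose by 0.70 ± 0.076 (SE, limma, adjusted p = 0.00247).

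JUND was listed as 2 transcripts. NM_005354, with 93.5% of the signal, was at 68.1 and 74.0 FPKM with control shRNA and at 120.4 and 120.3 FPKM with CEBPG knockdown. NM_001286968 was at 13.0 FPKM in control 1 and 13.4 FPKM in knockdown 1, and listed at 0 in control 2 and knockdown 2. The second transcript was thus listed with signal only in the libraries numbered 1, in either group. On its own, NM_005354 differed by 0.75 on the log2 scale with a standard error of 0.060.

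JUNB, which is often set against JUN as a brake on growth, lies at chr19:12791486-12793315 on the plus strand. It was at 33.7 and 28.3 FPKM with control shRNA and at 42.3 and 40.2 FPKM with CEBPG knockdown. The control libraries differed from each other by more than the knockdown libraries did, and the groups did not overlap. The mean rose from 31.0 ± 3.79 to 41.3 ± 1.45 FPKM (SD, n = 2 each), with a log2 fold change of 0.41 ± 0.088 (SE, limma, adjusted p = 0.0214). JUNB was not called without knockdown 1 (0.37, limma adjusted p = 0.115) or without knockdown 2 (0.44, limma adjusted p = 0.0697), fits in which calls over all genes also dropped from 2288 to 809 and 865. The whole of JUNB lies within HOOK2, a gene on the opposite strand with which it shares 259 bases of exon. Whether reads were counted by strand was not given in the sources used here, and HOOK2 was at 7.06 and 5.57 FPKM with control shRNA and 6.30 and 5.23 FPKM with CEBPG knockdown, with a log2 fold change of -0.11 (limma, adjusted p = 0.559).

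JUN, the founding member of the family and the strongest transactivator in it, lies at chr1:58776845-58784048 on the minus strand. Its values were 11.6 and 10.7 FPKM with control shRNA and 13.1 and 13.6 FPKM with CEBPG knockdown. Both knockdown libraries were above the control libraries, by a small margin. The log2 fold change was 0.24 with a 95% confidence interval from 0.075 to 0.40 and an adjusted p of 0.0516 (limma), and JUN was not called.

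FOSL1, also known as FRA1, lacks the C-terminal transactivation domain of FOS. On the log2(FPKM + 1) scale it had the largest fold change of the 8 tested genes, whereas IER3 was ahead with a pseudocount of 0.1 (0.95 against 0.90) and without knockdown 2 (0.86 against 0.79). It lies at chr11:65892049-65900573 on the minus strand. FOSL1 was at 13.8 and 13.2 FPKM with control shRNA and at 24.0 and 26.7 FPKM with CEBPG knockdown. Each knockdown library was well above each control library. The mean rose from 13.5 ± 0.480 to 25.4 ± 1.92 FPKM (SD, n = 2 each), or 1.88-fold. On the log2 scale FOSL1 rose by 0.86 ± 0.074 (SE, limma, adjusted p = 0.00126). By log2 fold change FOSL1 ranked 66th from the top of the 10968 tested genes, IER3 111th, JUND 132nd, EGR1 230th and JUNB 641st.

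The 5 listed FOSL1 transcripts did not move alike. NM_005438, with 76.1% of the signal, was at 9.58 and 9.14 FPKM with control shRNA and at 18.9 and 21.5 FPKM with CEBPG knockdown, a log2 difference of 1.03 with a standard error of 0.093. NM_001300844 was at 2.53 and 1.20 FPKM with control shRNA and at 4.08 and 3.78 FPKM with CEBPG knockdown. Both of these were higher with CEBPG knockdown. In contrast, NM_001300855 was at 1.35 and 1.84 FPKM with control shRNA and listed at 0 in both knockdown libraries. The remaining 2 transcripts made up 4.41% and 0.488% of the signal. How reads were divided between transcripts was not given in the sources used here, and the division between them is less certain than the sum.

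FOSL2, or FRA2, lies at chr2:28392448-28417317 on the plus strand. It was far less abundant, at 2.26 and 2.04 FPKM with control shRNA and 2.89 and 2.80 FPKM with CEBPG knockdown. The groups did not overlap. The log2 fold change was 0.29, with a 95% confidence interval from 0.062 to 0.51 and an adjusted p of 0.074 (limma), and FOSL2 was not called.

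FOS and FOSB, the signal-induced members of the family, were barely detected. FOS, at chr14:75278826-75282230 on the plus strand, was at 1.19 and 0.689 FPKM with control shRNA and at 1.07 and 0.862 FPKM with CEBPG knockdown. FOSB, at chr19:45467995-45475179 on the plus strand and inside the opposite-strand gene ERCC1 with no shared exon, was at 0.755 and 0.390 FPKM with control shRNA and 0.480 and 0.368 FPKM with CEBPG knockdown. The groups overlapped for both genes, and replicates of one group differed by more than the group means. Both were under the filter of 1 FPKM. When fitted with no filter, FOS differed by 0.031 with a 95% confidence interval from -0.39 to 0.45 (limma, adjusted p = 0.931) and FOSB by -0.13 with an interval from -0.49 to 0.22 (limma, adjusted p = 0.581). Without control 2, FOS passed the filter at -0.16 (limma, adjusted p = 0.545). Neither gene was called in these fits.

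**Figure D2:**
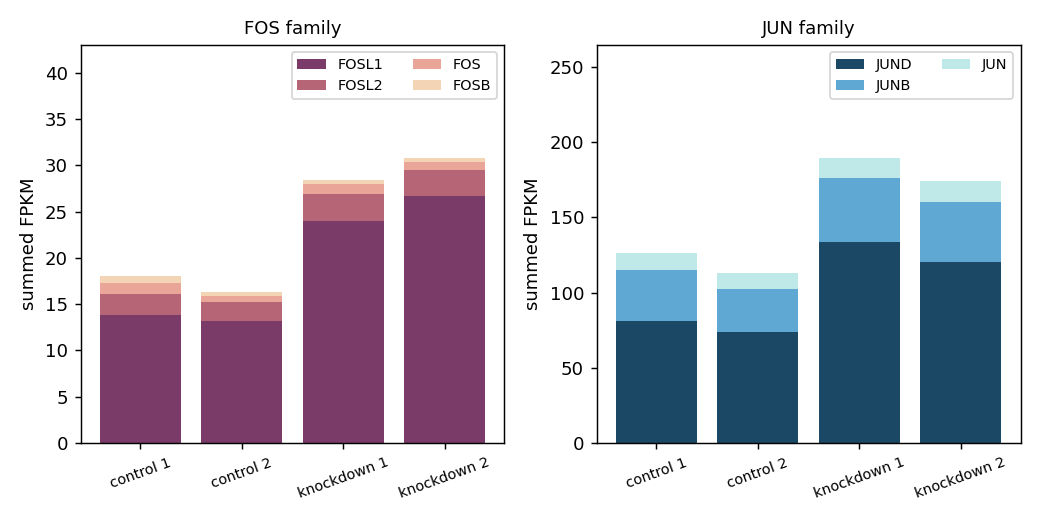
Summed FPKM of the FOS family (left) and of the JUN family (right) in each library, stacked by gene from 0. FOSL1 and JUND form the largest block in every bar, and both knockdown bars are taller than both control bars in each panel.

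Per family, the FOS genes summed to 18.0 and 16.3 FPKM with control shRNA and to 28.4 and 30.7 FPKM with CEBPG knockdown. The JUN genes summed to 126 and 113 FPKM with control shRNA and to 189 and 174 FPKM with CEBPG knockdown. Both sums were higher in each knockdown library, and the JUN sum was between 5.66 and 7.0 times the FOS sum in every library. FOSL1 contributed 76.7% and 80.8% of the FOS sum with control shRNA and 84.4% and 86.9% with CEBPG knockdown. JUND contributed 64.2% and 65.5% of the JUN sum with control shRNA and 70.7% and 69.1% with CEBPG knockdown. These shares follow from the values above and were not tested. The most abundant gene of its family was thus JUND among the JUN genes and FOSL1 among the FOS genes, in both groups.

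EGR1, a zinc finger factor induced through serum response factor, lies at chr5:138465479-138469303 on the plus strand, just downstream of the sequence with its 2 CArG boxes. Its values were 11.1 and 11.4 FPKM with control shRNA and 17.5 and 17.6 FPKM with CEBPG knockdown. Replicates lay close together and the groups were far apart. The mean rose from 11.3 ± 0.246 to 17.5 ± 0.0931 FPKM (SD, n = 2 each), a 1.56-fold change. On the log2 scale EGR1 rose by 0.60 ± 0.062 (SE, limma, adjusted p = 0.00215).

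IER3, also called IEX-1, is an early response gene linked to survival and apoptosis signaling and lies at chr6:30743199-30744548 on the minus strand. It was at 2.32 and 2.11 FPKM with control shRNA and at 4.83 and 3.97 FPKM with CEBPG knockdown. Both knockdown libraries were high. The mean rose from 2.21 ± 0.144 to 4.40 ± 0.610 FPKM (SD, n = 2 each), or 1.99-fold, and by 0.74 ± 0.11 (SE) on the log2(FPKM + 1) scale, which understates the change of low genes (limma, adjusted p = 0.00609). With a pseudocount of 0.1 in place of 1 the log2 fold change was 0.95. IER3 shares 440 bases of exon with IER3-AS1 and 85 with HCG20 on the opposite strand, neither of which was used here, and reads of these genes cannot be told apart without strand.

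IER2, a nuclear early response gene, lies at chr19:13150411-13154911 on the plus strand and was the second most abundant of the 10. It was at 73.6 and 65.4 FPKM with control shRNA and at 79.4 and 73.8 FPKM with CEBPG knockdown. Knockdown 2 exceeded control 1 by less than either pair of replicates differed. The log2 fold change was 0.14, with a 95% confidence interval from -0.040 to 0.32 (limma, adjusted p = 0.226), and IER2 was not called. Leaving out 1 library gave 0.056 without control 2, 0.088 without knockdown 1, 0.19 without knockdown 2 and 0.22 without control 1, none of them called. It shares 946 and 662 bases of exon with a pair of opposite-strand lncRNA genes that were not analysed here.

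**Figure D3:**
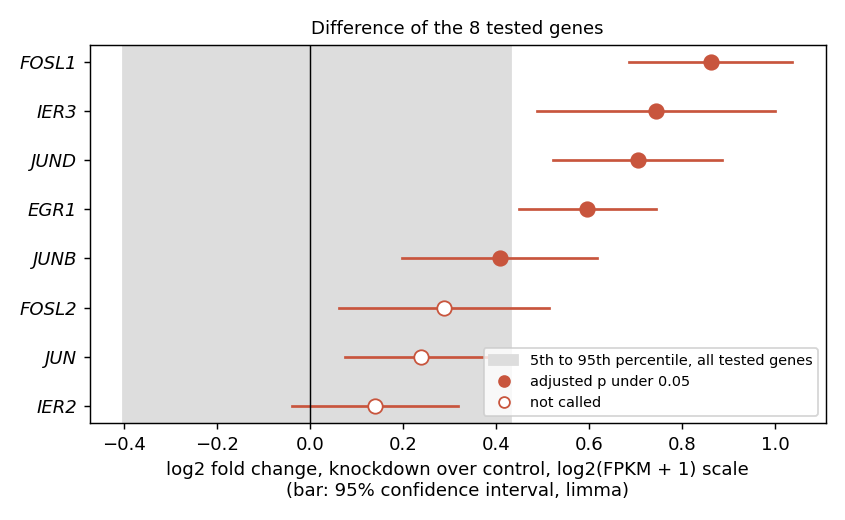
Log2 fold change of the 8 tested genes on the log2(FPKM + 1) scale, with 95% confidence intervals from limma, over a grey band from the 5th to the 95th percentile of all tested genes (-0.40 to 0.43). FOSL1, IER3, JUND and EGR1 lie to the right of the band with their whole interval, and JUNB, FOSL2, JUN and IER2 have their point inside it.

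In level, the genes ranked in the order JUND, IER2, JUNB, FOSL1, EGR1, JUN, IER3, FOSL2, FOS and FOSB in the control group, with means from 77.6 to 0.573 FPKM. The order was the same in the knockdown group, where means ran from 127 to 0.424 FPKM. In the control group the ranges of EGR1 and JUN, of IER3 and FOSL2 and of FOS and FOSB overlapped, so these neighbors did not differ beyond their spread. In the knockdown group no 2 neighbors overlapped. There EGR1 was at 17.5 FPKM on average against 13.4 FPKM for JUN, and IER3 at 4.40 against 2.85 FPKM for FOSL2.

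**Figure D4:**
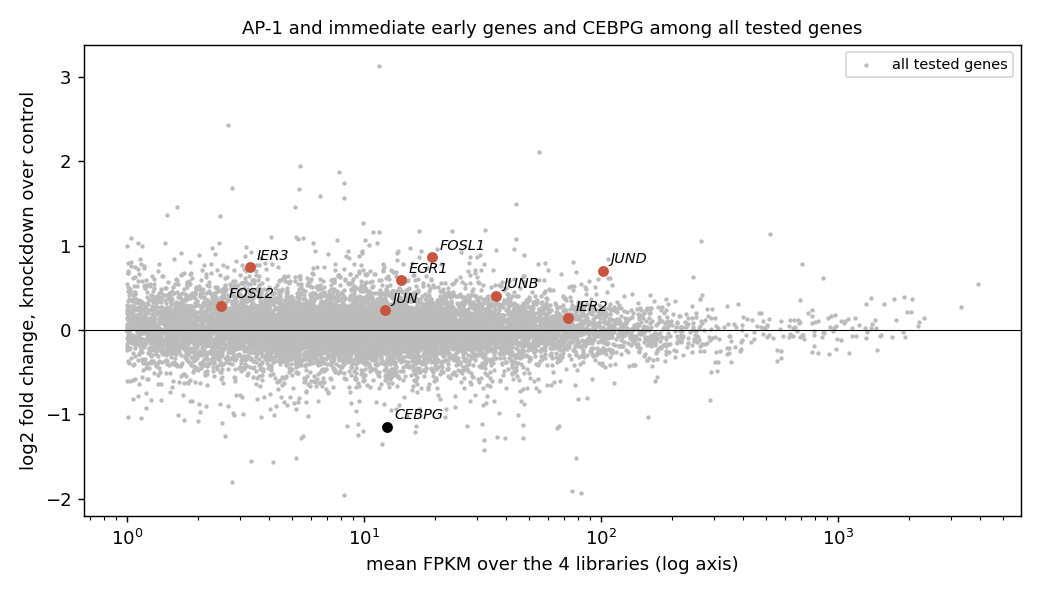
Log2 fold change against mean FPKM (log axis) for all tested genes in grey, with the 8 tested AP-1 and immediate early genes in red and CEBPG in black. The red points spread over the range of levels from 2.50 FPKM for FOSL2 to 102 FPKM for JUND, and all lie above 0, while CEBPG lies at -1.14.

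The genes whose profile over the 4 libraries was most like that of FOSL1, by the Euclidean distance between log2(FPKM + 1) values centered on each gene's mean, were SLC16A3 (distance 0.078), TRIB1 (0.086) and CD3G (0.10). SLC16A3, a lactate transporter, was at 1.47 and 1.34 FPKM with control shRNA and 2.94 and 3.36 FPKM with CEBPG knockdown. TRIB1, a scaffold for degradation of CEBP proteins, was at 2.33 and 2.35 FPKM with control shRNA and 4.91 and 5.15 FPKM with CEBPG knockdown. Near to JUNB were TULP3 (0.014) and NRROS (0.017). With 4 libraries, such likeness largely restates the difference between the groups.

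Other basic leucine zipper genes that pair with or resemble AP-1 proteins were mostly not called. Of 16 on the list, 14 were in the table and 11 were tested, with 2 called higher, 1 lower and 8 not called, and a median log2 fold change of 0.13. The calls made up 27.3% of the tested genes of the list, beside 20.9% of all. NFE2L2, the factor of the antioxidant response, was at 41.4 FPKM in both control libraries and 50.8 and 48.6 FPKM with CEBPG knockdown (0.26, limma adjusted p = 0.0233). MAFG, a small MAF partner protein, was at 30.3 FPKM in both control libraries and 35.6 and 34.9 FPKM with CEBPG knockdown (0.21, limma adjusted p = 0.0412). NFE2L1 fell from 29.6 and 28.1 to 23.3 and 23.5 FPKM (-0.29, limma adjusted p = 0.0191). None of the 3 was called without knockdown 1 or without knockdown 2 (limma, 0 calls in each, 3 genes at an unadjusted p under 0.05).

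Other immediate early and early response genes were mixed. Of 32 genes, 29 were in the table and 17 were tested, of which 5 rose, 1 fell and 11 were not called. The median log2 fold change was 0.14, beside 0.015 over all tested genes, and 35.3% were called, beside 20.9% of all. PHLDA1, an early gene of growth factor signaling, rose from 3.19 and 3.35 to 13.7 and 12.8 FPKM (1.74, limma adjusted p = 0.00033). BTG2, an antiproliferative gene, rose from 9.36 and 9.89 to 18.5 and 17.2 FPKM (0.83, limma adjusted p = 0.00124). The others among the 4 largest rises were KLF10, a target of TGF-beta signaling (0.60, limma adjusted p = 0.00541), and TNFAIP3, an inhibitor of NF-kB signaling (0.45, limma adjusted p = 0.0346). MYC fell from 178 and 162 to 139 and 133 FPKM (-0.31, limma adjusted p = 0.0209). Without knockdown 1 there were 3 calls, without knockdown 2 there were 4, and without control 2 there were 5 (limma).

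Of 25 kinases and promoter-bound regulators upstream of these genes, 23 were tested, 2 were called higher and none lower. That is 8.70%, beside 20.9% of all tested genes, with a median log2 fold change of 0.073 beside 0.015 over all. ELK1, which binds with serum response factor at CArG boxes, rose from 24.6 and 22.4 to 30.4 and 30.1 FPKM (0.36, limma adjusted p = 0.0139). RPS6KA5, or MSK1, a kinase that phosphorylates CREB and histone H3 at early genes, rose from 1.11 and 1.16 to 1.73 and 1.99 FPKM (0.42, limma adjusted p = 0.0398). The ERK kinase MAPK3 and the JNK kinases MAPK8 and MAPK9 were not called. Without control 2 there was 1 call on this list, and without either knockdown library there were 0 (limma, 5 genes at an unadjusted p under 0.05 without knockdown 1 and 3 without knockdown 2).

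Genes of AU-rich mRNA decay and of JUN protein turnover numbered 12, all of which were tested, with 1 called higher and 1 lower. That is 16.7%, beside 20.9% of all tested genes, with a median log2 fold change of 0.0029 beside 0.015 over all. ZFP36L1, which destabilizes AU-rich mRNAs, rose from 12.7 and 12.0 to 15.3 FPKM in both knockdown libraries (0.28, limma adjusted p = 0.0249). Its relative ZFP36, counted on the early response list and not here, rose from 5.88 and 5.64 to 8.24 and 7.84 FPKM (0.42, limma adjusted p = 0.0109). CUL4A, a subunit of the ubiquitin ligase that acts on JUN, fell from 29.3 and 28.2 to 24.7 FPKM in both (-0.21, limma adjusted p = 0.0458). On this list 1 gene was called without control 1, and 0 were called without control 2, knockdown 1 or knockdown 2 (limma, in that order 4, 2 and 2 genes of the list at an unadjusted p under 0.05).

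Among 15 textbook AP-1 targets, 10 were in the table and 7 were tested, of which 4 rose, 2 fell and 1, VIM, was not called (0.20, limma adjusted p = 0.0729). The calls made up 85.7% of these 7 genes, beside 20.9% of all tested genes. The median log2 fold change was 0.63, beside 0.015 over all. MT2A, a metallothionein whose promoter gave an early AP-1 site, rose from 11.0 and 9.34 to 25.4 and 23.0 FPKM (1.18, limma adjusted p = 0.000998). IL6, an inflammatory cytokine, rose from 0.826 and 1.42 to 2.85 and 2.96 FPKM (0.89, limma adjusted p = 0.00918). PLAUR, the urokinase receptor, rose from 4.05 and 3.91 to 7.14 and 6.38 FPKM (0.64, limma adjusted p = 0.00446), and TIMP1, a metalloproteinase inhibitor, from 212 and 175 to 295 and 301 FPKM (0.63, limma adjusted p = 0.00633). The direction was not shared by the list: TGFB1 fell from 64.8 and 58.3 to 32.9 and 33.4 FPKM (-0.87, limma adjusted p = 0.00102), and CCND1, or cyclin D1, from 31.7 and 32.7 to 25.3 and 25.8 FPKM (-0.32, limma adjusted p = 0.0122). In bulk RNA, fewer cells of a kind and less RNA per cell cannot be told apart.

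**Figure D5:**
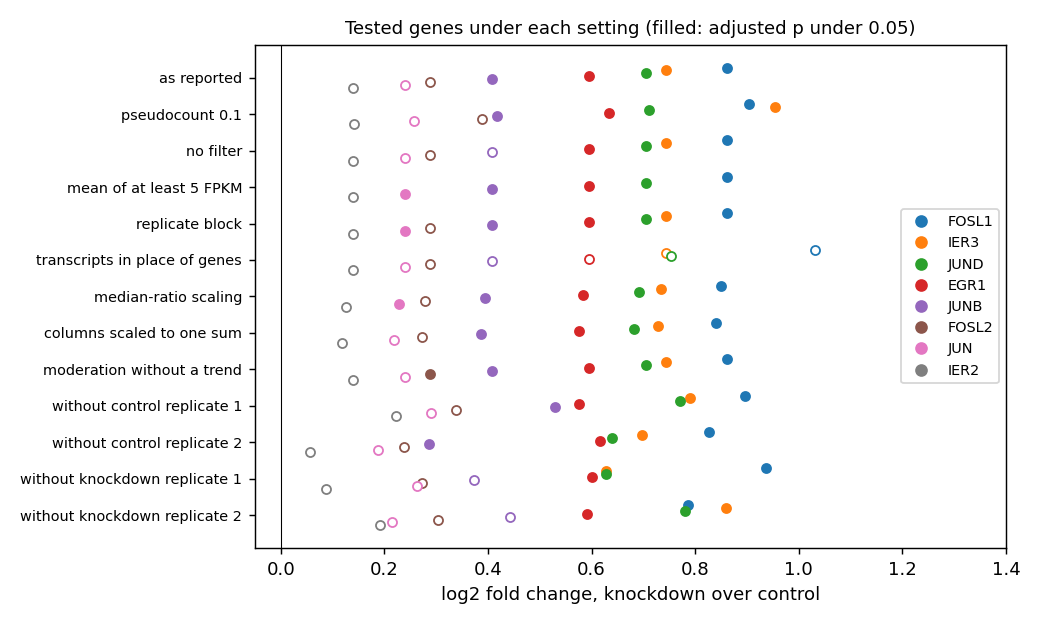
Log2 fold change of the 8 tested genes (colors) as reported and under 12 other settings, filled where the adjusted p was under 0.05. Every point lies above 0, and the points for transcripts in place of genes are all open.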

How the data were processed

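Filtered reads were mapped with HISAT (HISAT2 2.0.5 and hg38 in the submitters' processing notes), and FPKM values of 29265 RefSeq transcripts were deposited, a column per library. Quantifier and annotation release were not given in the sources used here. Transcripts without values (183) or without a symbol (164, 0.25% of FPKM) were left out, and 28918 were summed to 16504 genes. Low values held no steps of whole reads (over 2045 low genes of 1 transcript, the most common ratio between the control libraries, to 2 decimals, held for 1.12%), so depth is unknown. Groups were compared on log2(FPKM + 1), for genes averaging 1 FPKM or more, by limma 3.58.1 (R 4.3.3) using a mean trend, 2-sided tests, 2 residual degrees of freedom and Benjamini-Hochberg adjustment, after a check on simulated data. A call means an adjusted p under 0.05. Gene positions were from GENCODE 44. Genes and lists were written from general knowledge, with earlier results of these data known. From each list, called genes were named, at most the 4 with the largest change in each direction, and ZFP36 was named besides. Likeness was taken for the called genes with the highest and the lowest change, and some results are not reported here. Promoter sequences came from RefSeq on GRCh38.p14. A planned comparison of protein sequences was not made here. Alternatives were another pseudocount, other filters, a replicate block, transcripts, 2 scalings, no trend and each library left out.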

Additional observations from a re-analysis of the deposited data

How the results depend on the processing

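All 8 tested genes kept a positive log2 fold change in each alternative in which they were tested. IER3 and FOSL2 were not tested at a mean of at least 5 FPKM. FOSL1, JUND, EGR1 and IER3 were called in each of these alternatives except transcripts in place of genes. There, in limma, 0 of the 8 were called, with adjusted p from 0.0587 for JUND to 0.423 for IER2, when 25 of 15795 transcripts were called in all. In that fit 6 of the 8 were at an unadjusted p under 0.05 (limma), beside 3213 of the 15795 transcripts. Of the 8, 1, FOSL1, passed the threshold of the study there. JUNB was also not called with no filter (limma, adjusted p = 0.0869). JUN was called at a mean of at least 5 FPKM, with median-ratio scaling and with the replicate block (limma, adjusted p = 0.0353, 0.0378 and 0.031), and FOSL2 without a trend (limma, adjusted p = 0.0459). Over all alternatives the adjusted p ranged from 0.0009 to 0.164 for JUNB, 0.031 to 0.218 for JUN and 0.0459 to 0.33 for FOSL2 (limma).

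Called genes on the lists, in limma, were 3 for early response genes and 0 for upstream regulators and for decay and turnover with no filter (11, 6 and 3 at an unadjusted p under 0.05), 1 for upstream regulators at 5 FPKM, and 1 for basic leucine zipper genes without a trend. With transcripts they were 1 for early response genes and 0 for the other 4 lists (3 basic leucine zipper, 4 upstream, 2 decay and 7 target genes at an unadjusted p under 0.05). Leaving out 1 library gave 0 to 3 for basic leucine zipper genes, 3 to 6 for early response genes, 0 to 2 for upstream regulators and 0 to 1 for decay and turnover. No source ties libraries of 1 number to a shared culture or day, and their deviations from the group means had a correlation of 0.101, from a single pair of pairs that cannot establish pairing. With the replicate block, 6 of the 8 genes and 4 upstream regulators were called, and 3440 of all genes in place of 2288. Among called genes the share higher was 52.1%, against 48.8% when scaled by median ratios, 46.7% when columns were brought to one sum, 62.9% without control 1 and 43.2% without control 2. Neither scaling moved the median of all genes by more than 0.1. Depth could not be read from FPKM, so counting error is unknown.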

Other observations

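Some genes of the same lists were under the filter of 1 FPKM and were picked out here after their values were seen. JDP2, a basic leucine zipper protein that dimerizes with JUN proteins and represses AP-1 sites, was at 1.46 and 1.15 FPKM with control shRNA and at 0.315 and 0.385 FPKM with CEBPG knockdown. Both knockdown libraries were below both control libraries. Its mean over the 4 libraries was under the filter because of the knockdown values, and in the fit with no filter its log2 fold change was -0.77 with a 95% confidence interval from -1.02 to -0.51 (limma, adjusted p = 0.0369). CXCL8, a chemokine with an AP-1 site in its promoter, was at 0.482 and 0.450 FPKM with control shRNA and at 1.26 and 1.22 FPKM with CEBPG knockdown, with a log2 fold change of 0.61 in the same fit (limma, adjusted p = 0.0284). ARC, a neuronal early gene, was at 0.0332 and 0.133 FPKM with control shRNA and 0.367 and 0.272 FPKM with CEBPG knockdown and was not called (0.29, limma adjusted p = 0.0907). Relatives of EGR1 and the orphan receptor NR4A3 were close to 0. The highest value in any library was 0.0700 FPKM for EGR2 and 0.0294 FPKM for NR4A3, and EGR3 was at 0.115 and 0.106 FPKM with control shRNA and 0.0397 and 0.0483 FPKM with CEBPG knockdown.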
